A study of Mus musculus with 12 samples.

Results

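Mouse fibroblasts that had received a set of heart transcription factors and the kinase Akt1, and had then been sorted on a heart muscle reporter, were compared with fibroblasts that had received an empty vector. The comparison rests on 6 of the 12 RNA-seq libraries of the series, 3 labelled AGHMT and 3 labelled E, and it covers every gene with enough reads. AGHMT-labelled cells were mouse embryonic fibroblasts (MEFs, connective tissue cells grown from embryos) of strain C57BL/6 that were given Akt, Gata4, Hand2, Mef2c and Tbx5 and kept for 3 weeks. They were then sorted for GFP driven by αMHC, the promoter of the heart myosin gene Myh6, and are called iCMs in the labels. E cells were C57BL/6 MEFs kept for 3 weeks with empty vector, and the labels name no sort for them. Sorting, the 4 transcription factors and Akt1 therefore change together between the groups and cannot be told apart. The kinase is named Akt in the treatment label and Akt1 in the title of the series. Neither the promoter of the vectors nor the source of the 3 libraries of a group (separate cultures or not) is stated, so p-values measure the spread between these libraries, which may be technical. The remaining libraries were 3 of MEFs with the 4 factors alone (GHMT, sorted alike) and 3 of isolated adult ventricular cardiomyocytes (CM). They shared the estimate of spread, and CM levels, with GHMT levels for a few genes, are quoted where they help to place a gene.

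Gata4, Hand2, Mef2c and Tbx5 are DNA-binding proteins that switch on heart muscle genes in the embryo, and forcing them on in fibroblasts is a known way to turn some of these cells into heart muscle-like cells. A heart muscle cell contracts when calcium, released from its sarcoplasmic reticulum, lets myosin pull on actin in repeated units called sarcomeres. It burns mainly fatty acids in its mitochondria, is wired to its neighbours by junctions and rarely divides. A fibroblast in culture divides and lays down collagen and other matrix. Akt1 is a kinase of the insulin and growth factor pathway that promotes growth and survival.

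The libraries held 14386407 to 18493989 gene reads in the AGHMT-labelled group and 15971154 to 33552138 in the E group. Mitochondrially encoded genes took 42.7%, 36.6% and 40.4% of gene reads in AGHMT-labelled libraries and 3.65%, 6.35% and 7.36% in E libraries. The groups averaged 39.9 ± 3.07% and 5.79 ± 1.92% (SD, n = 3 each), and the exact two-sided permutation p of 0.1 for this difference is the smallest that 3 libraries against 3 can give. Fold change also moved with base composition. Genes with exons of up to 40% G and C had a median log2 fold change of 1.24, and those above 60% had a median of -2.60. A per-library correction for GC content, fitted without regard to group, brought these medians to 0.07 and -0.50, and counts after this correction are given beside the gene groups. Counts on total gene reads stand there too where that scaling moved the split of a group's calls by more than 10 percentage points. E libraries differed more among themselves than AGHMT-labelled ones did. Libraries E 1 and E 3 stood farthest apart, with a Pearson correlation of log2 CPM over genes of 0.922, against at least 0.982 for pairs of AGHMT-labelled libraries. Reads that aligned to several places were not counted, so genes with near-identical copies elsewhere in the genome are uncertain. Their number differed between the groups. They outnumbered uniquely aligned reads in each AGHMT-labelled library, with 24479540 against 16869653 in AGHMT 1, and in no E library, with 35208112 against 40326320 in E 1.

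**Figure D1:**
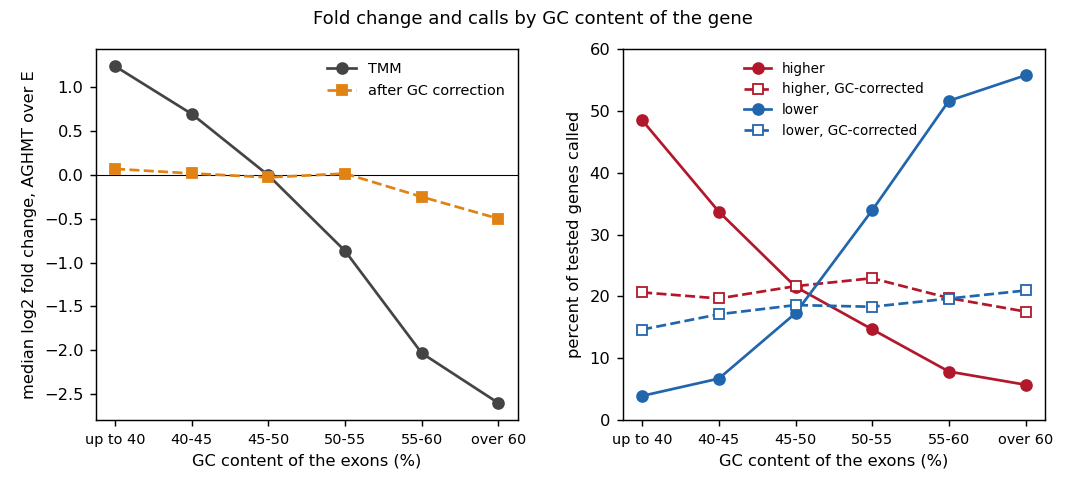
Left, the median log2 fold change of AGHMT-labelled over E libraries for genes binned by the GC content of their exons, before and after a GC correction of each library, and right, the percent of genes in each bin called higher or lower. Uncorrected medians run from 1.24 to -2.60 across the bins, and corrected ones from 0.07 to -0.50.

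The genes that define the groups come first, in CPM, that is read counts scaled for library size and composition. Gata4 (chr14:63198922-63271692 in mm10) had 7.45, 10.9 and 10.7 CPM in AGHMT-labelled libraries and 0.284, 0.237 and 0 CPM in E libraries. Mef2c had 163, 156 and 175 CPM in AGHMT-labelled libraries and 12.8, 15 and 17.1 CPM in E libraries, and Tbx5 had 63.8, 105 and 109 CPM in AGHMT-labelled libraries and 4.53, 4.63 and 3.06 CPM in E libraries. These 3 factors rose, with log2 fold changes of 5.69 ± 0.87, 3.46 ± 0.34 and 4.50 ± 0.35 (SE; edgeR adjusted p = 0.000185, 3.39e-06 and 2.89e-07). Hand2 had 5.69, 6.39 and 6.05 CPM in AGHMT-labelled libraries and 3.98, 1.72 and 1.1 CPM in E libraries. Every AGHMT-labelled library was above every E library for Hand2, but its log2 fold change of 1.40 ± 0.71 did not pass the test (edgeR adjusted p = 0.115) before GC correction and did after it (3.49, edgeR adjusted p = 9.21e-06). Akt1 (chr12:112653821-112674884) had 7.3, 12 and 19.6 CPM in AGHMT-labelled libraries and 104, 64.1 and 21 CPM in E libraries. The 3 AGHMT-labelled values lie below the 3 E values, which goes against the label, and the fold change of -2.27 ± 0.75 (SE, log2; edgeR adjusted p = 0.0227) became -0.16 after GC correction, with an edgeR adjusted p of 0.742. Leaving out E 1 or any 1 of the AGHMT-labelled libraries also ended this call. Whether reads of the delivered constructs align to these gene models was not tested, so the group is named here by its label. Myh6, the gene whose promoter drives the sorted reporter, had 108, 223 and 104 CPM in AGHMT-labelled libraries and 0.519, 0.879 and 1.56 CPM in E libraries.

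Across the transcriptome 15059 genes could be tested. Apart from the delivered genes, the genes with the largest changes and, in each list, the member with the most reads and those with the largest called changes, genes named below were chosen after their values were seen. For every called gene given with values except Adcy6, all 3 AGHMT-labelled libraries lay on one side of all 3 E libraries. The groups differed in 6998 genes (46.5%). Of the tested genes 3292 (21.9%) were higher and 3706 (24.6%) were lower in AGHMT-labelled libraries at an edgeR quasi-likelihood p, adjusted by Benjamini-Hochberg, under 0.05. In 71.6% of tested genes the 3 libraries of one group all lay above or all lay below those of the other, whether called or not. Large increases were more frequent than large decreases: 834 called genes were at least 16-fold higher and 597 at least 16-fold lower, and 111 against 8 passed 256-fold. A count of 3 reads over a group equals 0.0606 CPM in AGHMT-labelled and 0.0246 CPM in E libraries. Large falls were therefore harder to detect than large rises, and these counts rest on the scaling used here. Among abundant genes, above 5 on the mean log2 CPM scale, 68.4% of calls were higher, while in the less abundant ranges 41.2% to 41.3% were. The split of the calls depends on scaling and on single libraries. It was 1622 higher and 5339 lower on total gene reads, where the median of all genes was -0.99 in place of -0.16, and 3176 higher (21.1%) and 2732 lower (18.1%) after GC correction. On total gene reads the calls of Timp3, Col14a1, Col15a1, Ogn, Cd34, Nt5e, Cdkn1b, Insr, Bmpr1a, Hoxc8 and Myh11 ended among the genes given with values below, and limma on the deposited values ended those of Akt1, Adcy6, Gjc1, Myh11, Ogn, Col14a1, Col15a1 and Hoxc8. Without E 1 there were 1915 lower genes, without AGHMT 1 there were 2009 and without AGHMT 3 there were 1670.

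**Figure D2:**
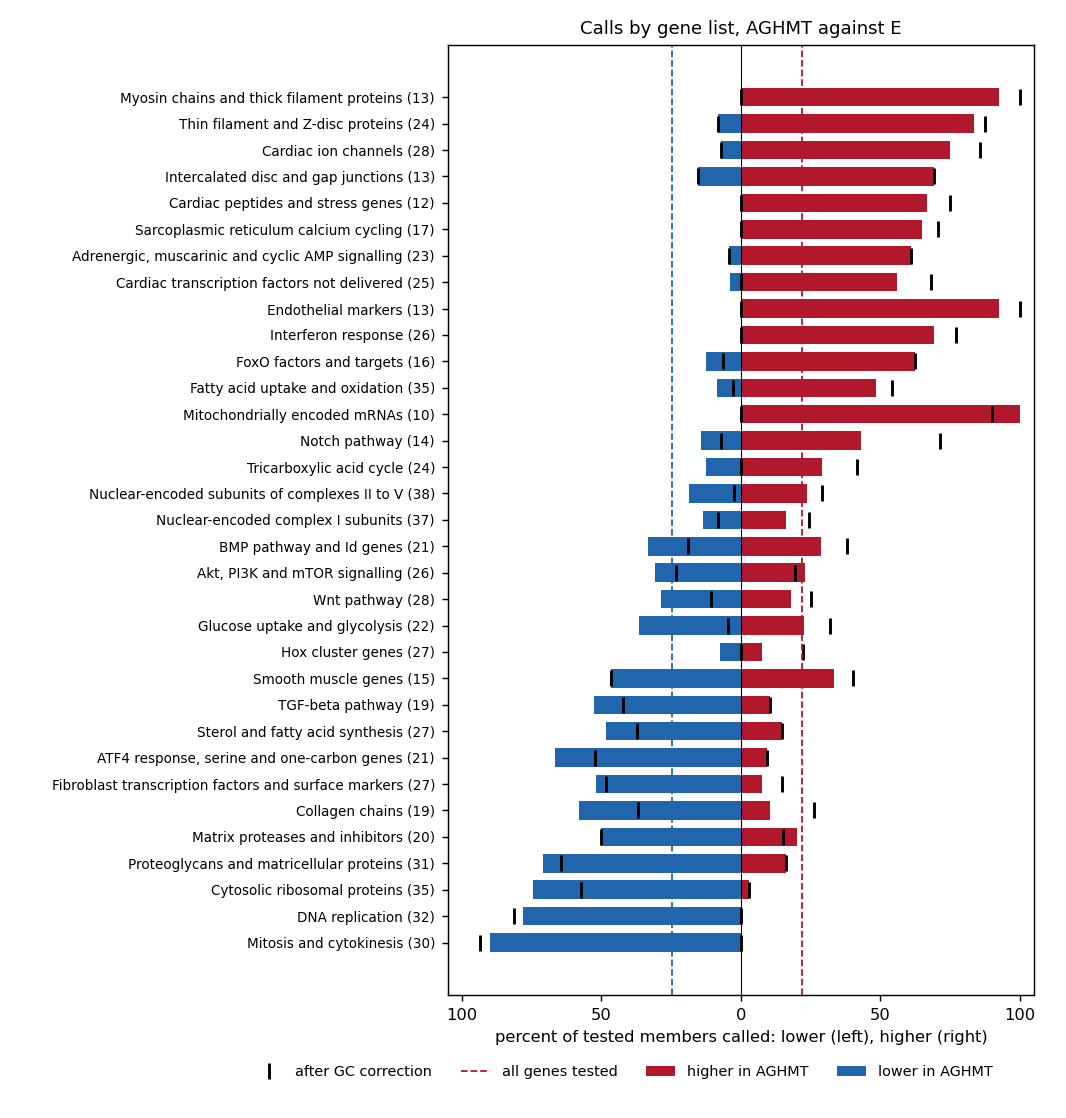
Percent of the tested members of each gene list that were called lower (bars to the left) and higher (bars to the right) in AGHMT-labelled against E libraries, with the number tested in parentheses, dashed lines at the shares over all tested genes (24.6% lower and 21.9% higher) and black ticks at the shares after GC correction. Heart, endothelial and interferon lists extend to the right and matrix, ribosome, replication and mitosis lists to the left.

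The contractile machinery was broadly higher in AGHMT-labelled libraries. In bulk RNA more cells of a type and more RNA per cell cannot be told apart, here or in the groups that follow. Of 13 tested myosin chains and thick filament proteins 12 rose and 0 fell, against 21.9% and 24.6% of all genes, and the median log2 fold change of the list was 6.53. The 12 include Myh6, whose promoter drives the sorted reporter, so its rise was not independent of the sort. Ttn, the giant spring protein that spans the sarcomere, had 1318, 1168 and 1170.2 CPM in AGHMT-labelled libraries and 5.17, 5.24 and 6.42 CPM in E libraries, a log2 fold change of 7.76 ± 0.35 (SE; edgeR adjusted p = 4.18e-09). Myl2, the ventricular myosin light chain, had 209.7, 343 and 131 CPM in AGHMT-labelled libraries and 1.17, 1.45 and 2.87 CPM in E libraries, and Myl7, its atrial counterpart, had 8.38, 15.7 and 7.09 CPM in AGHMT-labelled libraries and 0.1, 0 and 0 CPM in E libraries. Both light chains rose, with log2 fold changes of 6.96 ± 0.70 and 7.66 ± 1.10 (SE; edgeR adjusted p = 4.04e-06 and 0.000108), and Myl2 averaged 9435 ± 4108 CPM in CM libraries (SD, n = 3). Mybpc3, the cardiac myosin-binding protein, and Myom2, which ties myosin filaments together at the M-band, rose by 6.77 ± 0.69 and 6.53 ± 0.63 on the log2 scale (SE; edgeR adjusted p = 4.84e-06 and 2.76e-06). After GC correction 13 higher and 0 lower calls stood in this list.

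Among 24 tested thin filament and Z-disc proteins 20 rose and 2 fell (21 higher and 2 lower after GC correction). Tnnt2, cardiac troponin T, had 426, 638 and 365 CPM in AGHMT-labelled libraries and 3.65, 1.35 and 1.28 CPM in E libraries. Tnnt2 rose by 7.80 ± 0.71 on the log2 scale (SE; edgeR adjusted p = 1.42e-06). Actc1, the actin of heart muscle, had 348, 541 and 517 CPM in AGHMT-labelled libraries and 1.19, 1.86 and 4.83 CPM in E libraries. Smpx, a small muscle protein of the costamere, showed the largest change of the list, with 249, 218 and 287 CPM in AGHMT-labelled libraries and 0.167, 0.203 and 0.55 CPM in E libraries. Smpx rose by 9.69 ± 0.52 on the log2 scale (SE; edgeR adjusted p = 8.69e-09). Ldb3, which holds the Z-disc together, rose to 625, 463 and 614 CPM in AGHMT-labelled libraries, against 4.57, 4.16 and 5.04 CPM in E libraries. The 2 members that fell were Tpm2 and Acta1. Tpm2, the tropomyosin of smooth and slow muscle, had 6.61, 17.7 and 6.93 CPM in AGHMT-labelled libraries and 213, 137 and 81.9 CPM in E libraries. Tpm2 fell by 3.79 ± 0.67 on the log2 scale (SE; edgeR adjusted p = 0.000592). Acta1, the skeletal muscle actin, had 0.384, 0.275 and 0.873 CPM in AGHMT-labelled libraries and 10.6, 5.61 and 4.71 CPM in E libraries. Acta1 fell by 3.74 ± 0.95 on the log2 scale (SE; edgeR adjusted p = 0.00718). So the cardiac actin was higher and the skeletal actin lower.

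**Figure D3:**
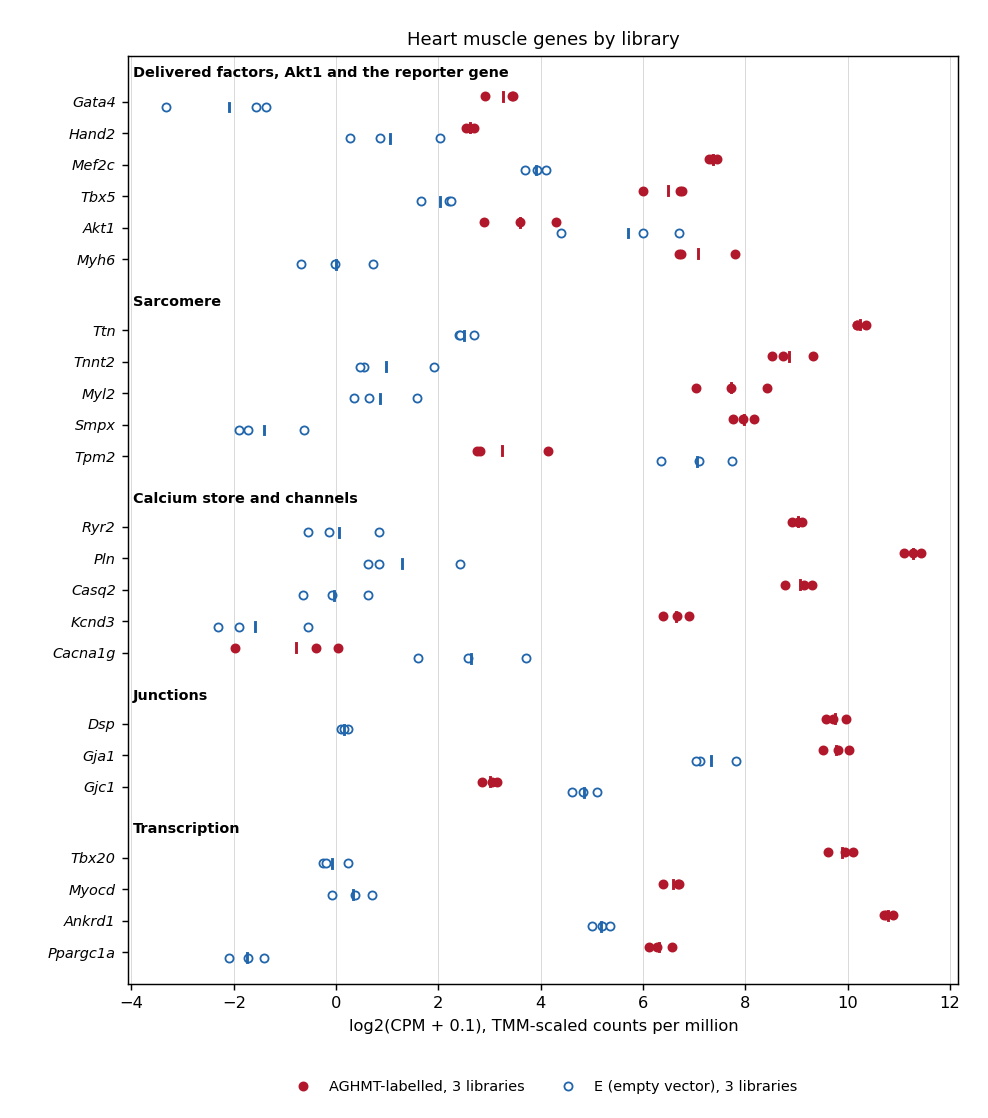
Values of the delivered genes and of heart muscle genes in each library on a log2(CPM + 0.1) scale, filled red points for the 3 AGHMT-labelled and open blue points for the 3 E libraries, with vertical ticks at the means. Groups do not overlap for any gene drawn, with Akt1, Tpm2, Cacna1g and Gjc1 to the left in AGHMT-labelled libraries and the remaining genes to the right.

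Promoter windows of members of these lists were searched for known elements, among them the MEF2 element, which the delivered factor Mef2c is known to bind. Some of the windows are shown. A gene with several windows was counted, here and below, as holding an element if any of them did. Here RefSeq windows of 250 bases before the start site (GRCm38.p6, the same chromosomes as mm10) were found for 70 of the 95 members that rose in the 7 heart lists (2 of sarcomere genes, and 1 each of calcium store, channel, junction, transcription factor and peptide genes). The MEF2 element, searched on both strands, was in 8.57% of these 70 genes (6 of them), against 0.607% of the 10712 tested genes with a window and 1.29% of the 2324 that rose. The CArG box, to which serum response factor binds, was in 7 of the 70, against 1.47% of tested genes with a window and 1.38% of those that rose. GATA sites (AGATAA or AGATAG or TGATAA or TGATAG) were in 31.4%, against 20.6% of tested genes with a window. They were in 23.3% of those that rose and 29.7% of all 27025 genes in the RefSeq table. T-box half-sites (AGGTGTGA or AGGTGTTA or AGGTGTCA) were in 4.29%, against 2.04% of tested genes with a window. They were in 2.37% of those that rose and 2.64% of all genes in that table. These are shares of letters in a window and not of bound sites, and whether a factor acts through them was not tested. No share was taken for heart list members that did not rise, so membership of a list and the rise cannot be told apart here. Capitals mark the MEF2 element in the first 4 windows, the CArG box in Actc1 and the T-box half-site, read on the opposite strand, in Nppa.
Mybpc3, chr2:91117894-91118143, plus strand: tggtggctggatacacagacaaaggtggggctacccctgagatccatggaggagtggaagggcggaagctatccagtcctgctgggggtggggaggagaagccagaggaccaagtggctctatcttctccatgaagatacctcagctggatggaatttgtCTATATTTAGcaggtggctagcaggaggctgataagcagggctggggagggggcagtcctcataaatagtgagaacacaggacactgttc
Myoz2, chr3:123034988-123035237, minus strand: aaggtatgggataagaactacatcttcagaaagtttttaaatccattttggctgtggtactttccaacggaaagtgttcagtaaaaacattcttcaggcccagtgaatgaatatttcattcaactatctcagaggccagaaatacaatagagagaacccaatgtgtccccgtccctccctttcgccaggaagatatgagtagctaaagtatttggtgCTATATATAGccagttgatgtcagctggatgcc
Ttn, chr2:76982548-76982797, minus strand: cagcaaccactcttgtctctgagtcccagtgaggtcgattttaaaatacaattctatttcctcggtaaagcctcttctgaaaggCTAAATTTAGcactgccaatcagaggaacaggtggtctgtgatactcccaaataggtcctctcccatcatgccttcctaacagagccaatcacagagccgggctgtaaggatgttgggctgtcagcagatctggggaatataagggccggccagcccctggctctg
Xirp2, chr2:67445752-67446001, plus strand: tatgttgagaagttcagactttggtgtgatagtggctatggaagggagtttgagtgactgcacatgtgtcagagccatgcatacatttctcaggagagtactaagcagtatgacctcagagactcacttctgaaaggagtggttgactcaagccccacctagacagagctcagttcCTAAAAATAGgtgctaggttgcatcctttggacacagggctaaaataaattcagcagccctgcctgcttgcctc
Actc1, chr2:114052876-114053125, minus strand: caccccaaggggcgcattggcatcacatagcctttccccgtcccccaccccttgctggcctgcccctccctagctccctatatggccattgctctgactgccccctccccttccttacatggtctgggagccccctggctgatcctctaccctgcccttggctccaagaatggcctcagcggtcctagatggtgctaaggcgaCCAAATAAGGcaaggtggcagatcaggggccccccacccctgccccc
Nppa, chr4:148000472-148000721, plus strand: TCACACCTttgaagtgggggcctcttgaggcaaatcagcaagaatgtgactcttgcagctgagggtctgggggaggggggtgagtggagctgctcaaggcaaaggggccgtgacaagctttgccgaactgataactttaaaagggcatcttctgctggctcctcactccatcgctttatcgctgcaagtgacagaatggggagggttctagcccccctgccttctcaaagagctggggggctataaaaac

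Beside their windows, Myoz2, a Z-disc protein that holds the phosphatase calcineurin, had 47.1, 69.9 and 60.8 CPM in AGHMT-labelled libraries and 0.184, 0.439 and 0.673 CPM in E libraries, and Xirp2, an actin-binding protein of the intercalated disc, had 116, 104 and 101 CPM in AGHMT-labelled libraries and 0.134, 0.304 and 0.459 CPM in E libraries. Both rose, with log2 fold changes of 7.14 ± 0.50 and 8.52 ± 0.56 (SE; edgeR adjusted p = 9.97e-08 and 5.52e-08).

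Most genes that store and release calcium were higher: 11 of 17 tested were higher and 0 lower (12 higher and 0 lower after GC correction). Ryr2, the release channel of the sarcoplasmic reticulum, had 525, 554 and 482 CPM in AGHMT-labelled libraries and 0.585, 0.811 and 1.68 CPM in E libraries. Ryr2 rose by 8.997 ± 0.54 on the log2 scale (SE; edgeR adjusted p = 2.33e-08). Pln, phospholamban, which brakes the calcium pump, had 2754, 2206 and 2490.0 CPM in AGHMT-labelled libraries and 1.44, 1.69 and 5.26 CPM in E libraries. Pln rose by 9.80 ± 0.62 on the log2 scale (SE; edgeR adjusted p = 4.24e-08). Casq2, the calcium buffer inside the store, had 569, 629 and 437 CPM in AGHMT-labelled libraries and 0.535, 0.845 and 1.44 CPM in E libraries. Casq2 rose by 9.19 ± 0.52 on the log2 scale (SE; edgeR adjusted p = 1.49e-08). Pln at 2483 ± 274 CPM in AGHMT-labelled libraries (SD, n = 3) compares with 7954 ± 3059 CPM in CM libraries. Srl, sarcalumenin, a further protein of the store, had 172, 153 and 132 CPM in AGHMT-labelled libraries and 3.51, 3.08 and 3.03 CPM in E libraries. Srl rose by 5.57 ± 0.34 on the log2 scale (SE; edgeR adjusted p = 2.46e-08).

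Ion channel genes were mostly higher, with 21 of 28 higher and 2 lower (24 higher and 2 lower after GC correction). Kcnj3, a potassium channel subunit opened by acetylcholine signalling in the atrium, had 121, 83.9 and 101 CPM in AGHMT-labelled libraries and 0.0669, 0.101 and 0.0611 CPM in E libraries. Kcnj3 rose by 10.28 ± 0.62 on the log2 scale (SE; edgeR adjusted p = 2.44e-08). Kcnd3, a channel of early repolarisation, had 119.7, 83.5 and 102 CPM in AGHMT-labelled libraries and 0.167, 0.101 and 0.581 CPM in E libraries. Kcnd3 rose by 8.48 ± 0.64 on the log2 scale (SE; edgeR adjusted p = 2.27e-07). Cacna1g, a T-type calcium channel, was among those that fell and had 0.154, 0.661 and 0.927 CPM in AGHMT-labelled libraries and 13.1, 5.88 and 2.94 CPM in E libraries. Cacna1g fell by 3.61 ± 0.90 on the log2 scale (SE; edgeR adjusted p = 0.00539).

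Receptors and effectors through which nerves and hormones set the heart rate formed a further group in which 14 of 23 tested genes rose and 1, the cyclase Adcy6, fell. The call for Adcy6 ended without AGHMT 1, AGHMT 3 or E 1, and its log2 fold change of -1.49 was 0.12 after GC correction. Chrm2, the muscarinic receptor of the vagus nerve, had 133, 97.4 and 119 CPM in AGHMT-labelled libraries and 0.535, 0.439 and 0.764 CPM in E libraries. Chrm2 rose by 7.64 ± 0.46 on the log2 scale (SE; edgeR adjusted p = 2.45e-08). Adrb1, the main adrenergic receptor of heart muscle, had 19.8, 16.4 and 28 CPM in AGHMT-labelled libraries and 0.251, 0.135 and 0.183 CPM in E libraries. Adrb1 rose by 6.72 ± 0.66 on the log2 scale (SE; edgeR adjusted p = 2.82e-06). Adora1, an adenosine receptor, had 22.3, 20.3 and 34.9 CPM in AGHMT-labelled libraries and 0.151, 0 and 0.122 CPM in E libraries. Adora1 rose by 7.93 ± 0.78 on the log2 scale (SE; edgeR adjusted p = 3.13e-06). Prkar1a, a regulatory subunit of protein kinase A, had the most reads of the list, at 1049, 889 and 1041 CPM in AGHMT-labelled libraries against 302, 238 and 364 CPM in E libraries. Prkar1a rose by 1.72 ± 0.28 on the log2 scale (SE; edgeR adjusted p = 0.000273). Popdc3 and Bves, cyclic AMP-binding proteins of muscle membranes, rose by 5.79 ± 0.85 and 3.72 ± 0.44 on the log2 scale (SE; edgeR adjusted p = 0.000132 and 1.76e-05). The list had 14 higher and 1 lower after GC correction and 11 higher and 5 lower on total gene reads.

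At the contacts between cells 9 of 13 tested genes rose and 2 fell (9 higher and 2 lower after GC correction). Dsp, desmoplakin, which anchors intermediate filaments at desmosomes, had 836, 759 and 1002 CPM in AGHMT-labelled libraries and 0.97, 1.08 and 1.01 CPM in E libraries. Dsp rose by 9.72 ± 0.38 on the log2 scale (SE; edgeR adjusted p = 1.44e-09). Dsc2 and Dsg2, the adhesive proteins of the desmosome, rose by 8.23 ± 0.50 and 9.69 ± 0.55 (SE, log2; edgeR adjusted p = 2.45e-08 and 1.45e-08). Connexin genes, which encode gap junction channels, divided. Gja1, the ventricular connexin, had 1047, 729.7 and 893 CPM in AGHMT-labelled libraries and 138, 132 and 225 CPM in E libraries. Gja1 rose by 2.43 ± 0.31 on the log2 scale (SE; edgeR adjusted p = 3.78e-05). Gja5, the atrial and conduction system connexin, had 43.3, 50.8 and 38 CPM in AGHMT-labelled libraries and 0.519, 0.135 and 0.397 CPM in E libraries. Gja5 rose by 6.90 ± 0.58 on the log2 scale (SE; edgeR adjusted p = 5.3e-07). Gjc1, the connexin of the early heart tube and the nodes, was lower at 8.22, 8.7 and 7.09 CPM in AGHMT-labelled libraries and 28.4, 24.3 and 34.3 CPM in E libraries. Gjc1 fell by 1.86 ± 0.53 on the log2 scale (SE; edgeR adjusted p = 0.0111). Without AGHMT 1 or AGHMT 3 it no longer passed. The other member that fell was Vcl, vinculin, which links actin to adhesions, at 53, 75.4 and 65 CPM in AGHMT-labelled libraries and 281, 177 and 152 CPM in E libraries (log2 fold change -1.66 ± 0.43 (SE), edgeR adjusted p = 0.00648), a call that ended without E 1.

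Heart transcription factors that were not delivered were also higher, 14 of 25 tested with 1 lower, Mef2d, and 17 higher and 0 lower after GC correction. The call for Mef2d ended without any 1 of AGHMT 1, AGHMT 2, AGHMT 3, E 1 and E 2, and its log2 fold change of -1.33 was 0.13 after GC correction. Tbx20, a T-box factor of the heart chambers, had 1104, 783 and 994 CPM in AGHMT-labelled libraries and 0.736, 0.778 and 1.07 CPM in E libraries. Tbx20 rose by 10.12 ± 0.47 on the log2 scale (SE; edgeR adjusted p = 4.28e-09). Myocd, myocardin, a partner of serum response factor in heart and smooth muscle, had 102, 83.4 and 104 CPM in AGHMT-labelled libraries and 1.19, 0.845 and 1.53 CPM in E libraries. Myocd rose by 6.34 ± 0.50 on the log2 scale (SE; edgeR adjusted p = 3.21e-07). Ankrd1, a stress-responsive muscle regulator, was already measurable in E libraries, at 1733, 1671 and 1891 CPM in AGHMT-labelled libraries and 32, 36.7 and 40.9 CPM in E libraries. Ankrd1 rose by 5.59 ± 0.30 on the log2 scale (SE; edgeR adjusted p = 8.12e-09). Smyd1, a muscle methyltransferase, and Prox1 rose by 8.28 ± 0.46 and 5.75 ± 0.42 on the log2 scale (SE; edgeR adjusted p = 1.44e-08 and 1.5e-07). Gata6, a relative of Gata4 that was not delivered, had 28.4, 26.6 and 33.2 CPM in AGHMT-labelled libraries and 3.46, 3.18 and 3 CPM in E libraries. Gata6 rose by 3.19 ± 0.42 on the log2 scale (SE; edgeR adjusted p = 4.27e-05). Nkx2-5, Gata5 and Hand1 had too few reads to be tested. In the group of heart peptides and energy reserve genes 8 of 12 rose and 0 fell (9 higher and 0 lower after GC correction). Nppa, atrial natriuretic peptide, had 6.3, 7.49 and 12.2 CPM in AGHMT-labelled libraries and 0.151, 0.203 and 0.0917 CPM in E libraries. Nppa rose by 5.81 ± 0.57 on the log2 scale (SE; edgeR adjusted p = 3.05e-06). Corin, the protease that activates this peptide, had 96, 74.4 and 98.4 CPM in AGHMT-labelled libraries and 0.0669, 0.169 and 0.275 CPM in E libraries. Corin rose by 9.08 ± 0.55 on the log2 scale (SE; edgeR adjusted p = 2.41e-08). Mb, myoglobin, had 75.8, 220.2 and 80.1 CPM in AGHMT-labelled libraries and 0.569, 0.778 and 0.978 CPM in E libraries, with AGHMT 2 well above the other AGHMT-labelled libraries. Mb rose by 7.34 ± 0.81 on the log2 scale (SE; edgeR adjusted p = 1.01e-05).

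Genes of other muscle types did not move as one. Of 15 smooth muscle genes 5 rose and 7 fell, and 6 higher and 7 lower passed after GC correction. Contractile and actin-linked genes were among the lower ones. Acta2, smooth muscle actin, had 196, 255 and 220.3 CPM in AGHMT-labelled libraries and 3331, 2019.8 and 414 CPM in E libraries. Acta2 fell by 3.10 ± 0.63 on the log2 scale (SE; edgeR adjusted p = 0.00149). Cnn1, calponin, had 7.99, 11.1 and 5.18 CPM in AGHMT-labelled libraries and 193, 143 and 132 CPM in E libraries. Cnn1 fell by 4.27 ± 0.46 on the log2 scale (SE; edgeR adjusted p = 7.7e-06). Tagln fell by 3.67 ± 0.56 on the log2 scale (SE; edgeR adjusted p = 0.000177). Actg2 fell by 4.71 ± 0.59 on the log2 scale (SE; edgeR adjusted p = 3.16e-05). E 3 had the lowest Acta2 of its group but stayed above each AGHMT-labelled library. The 5 that rose were Mylk, Synpo2, Myh11 and, used in heart muscle too, Ldb3 and Casq2. Mylk, myosin light chain kinase, had 796, 634 and 656 CPM in AGHMT-labelled libraries and 119.7, 102 and 97.1 CPM in E libraries. Mylk rose by 2.71 ± 0.25 on the log2 scale (SE; edgeR adjusted p = 1.68e-06). Synpo2, an actin-binding protein, had 161, 115 and 128 CPM in AGHMT-labelled libraries and 9.78, 9.26 and 9.72 CPM in E libraries. Synpo2 rose by 3.81 ± 0.42 on the log2 scale (SE; edgeR adjusted p = 9.45e-06). Myh11, smooth muscle myosin, had 109, 174 and 99.7 CPM in AGHMT-labelled libraries and 50.5, 32.2 and 25 CPM in E libraries (log2 fold change 1.83 ± 0.57 (SE), edgeR adjusted p = 0.0178), a call lost without AGHMT 2, E 2 or E 3. Of 20 skeletal muscle genes 6 had enough reads to test and 1 rose (2 higher and 0 lower after GC correction, 1 higher and 1 lower on total gene reads), Tnnt3, a fast skeletal troponin T, at 16.2, 19.4 and 9.49 CPM in AGHMT-labelled libraries and 0.702, 0.203 and 0.245 CPM in E libraries. Tnnt3 rose by 5.23 ± 0.96 on the log2 scale (SE; edgeR adjusted p = 0.000744). The skeletal master genes Myod1 and Pax7 had no read in either group, and Myog had none in AGHMT-labelled libraries and 3, 1 and 0 reads in E libraries.

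Matrix and fibroblast genes were mostly lower, with a minority higher. Of 31 proteoglycans and matricellular proteins 22 fell and 5 rose (20 and 5 after GC correction), of 19 collagen chains 11 fell and 2 rose (7 and 5, and on total gene reads 14 and 0), and of 20 matrix proteases and inhibitors 10 fell and 4 rose (10 and 3, and on total gene reads 11 and 2). With 1 library left out, lower calls in these 3 lists ranged from 19 to 23, from 9 to 13 and from 8 to 10. Fn1, fibronectin, had 392, 653 and 477 CPM in AGHMT-labelled libraries and 8792, 5693 and 2253 CPM in E libraries. Fn1 fell by 3.46 ± 0.48 on the log2 scale (SE; edgeR adjusted p = 7.57e-05). Col12a1, a collagen that sits on fibril surfaces, had 287, 364 and 299 CPM in AGHMT-labelled libraries and 3192, 3436 and 3736 CPM in E libraries. Col12a1 fell by 3.45 ± 0.25 on the log2 scale (SE; edgeR adjusted p = 1.46e-07). Bgn, biglycan, had 148, 194 and 137 CPM in AGHMT-labelled libraries and 3187, 2930.3 and 1378 CPM in E libraries. Bgn fell by 3.97 ± 0.54 on the log2 scale (SE; edgeR adjusted p = 6.33e-05). E 3 was the lowest E library for Fn1 and Bgn, and still above each AGHMT-labelled library. Postn, periostin, and Thbs1, thrombospondin, fell by 2.30 and 2.24 on the log2 scale but stayed abundant, at 891 ± 123 and 1426 ± 95.5 CPM in AGHMT-labelled libraries (SD, n = 3).

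A set of small matrix proteins went the other way. Lum, lumican, a collagen-binding proteoglycan, had 1422, 1046 and 1137 CPM in AGHMT-labelled libraries and 64.3, 77.9 and 92.8 CPM in E libraries. Lum rose by 3.94 ± 0.38 on the log2 scale (SE; edgeR adjusted p = 2.51e-06). Dcn, decorin, of the same family, had 1388, 1283 and 1348 CPM in AGHMT-labelled libraries and 266, 325 and 192 CPM in E libraries. Dcn rose by 2.36 ± 0.31 on the log2 scale (SE; edgeR adjusted p = 4.17e-05). Its log2 fold change after GC correction was 0.98. Efemp1, an elastic fibre protein, had 892, 872 and 724 CPM in AGHMT-labelled libraries and 126, 172 and 261 CPM in E libraries. Efemp1 rose by 2.16 ± 0.33 on the log2 scale (SE; edgeR adjusted p = 0.000162). Loxl2, a collagen cross-linking enzyme, and Ogn, a further small proteoglycan, complete the 5 that rose. Ogn had a log2 fold change of 1.36 that became -0.02 after GC correction, and its call ended without AGHMT 1, AGHMT 3 or E 1. Among protease inhibitors Timp3 was higher at 1588, 1637 and 1836 CPM in AGHMT-labelled libraries and 465, 448 and 619 CPM in E libraries. Timp3 rose by 1.72 ± 0.25 on the log2 scale (SE; edgeR adjusted p = 0.000106). Timp1 was lower at 13.1, 22.1 and 14.9 CPM in AGHMT-labelled libraries and 535, 351 and 103 CPM in E libraries. Timp1 fell by 4.30 ± 0.50 on the log2 scale (SE; edgeR adjusted p = 1.6e-05). Lox, an enzyme that cross-links collagen and elastin, had 737, 694 and 834 CPM in AGHMT-labelled libraries and 2352, 2938 and 3595 CPM in E libraries. Lox fell by 1.97 ± 0.32 on the log2 scale (SE; edgeR adjusted p = 0.000294). Fbn1, fibrillin, had 169, 227 and 209.7 CPM in AGHMT-labelled libraries and 1999, 1767 and 1551 CPM in E libraries. Fbn1 fell by 3.13 ± 0.31 on the log2 scale (SE; edgeR adjusted p = 2.72e-06). The 2 collagens that rose were Col14a1 and Col15a1, by 1.70 ± 0.48 and 2.24 ± 0.65 on the log2 scale (SE; edgeR adjusted p = 0.011 and 0.0121).

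Of 27 fibroblast transcription factors and surface markers 14 fell and 2 rose, 13 and 4 after GC correction, and 19 and 0 on total gene reads. Lower calls of this list numbered 10 without AGHMT 1, AGHMT 2 or AGHMT 3, 11 without E 1 or E 2 and 14 without E 3. Thy1, a surface protein used to sort fibroblasts, had 8.76, 17.1 and 8.94 CPM in AGHMT-labelled libraries and 534, 239 and 93.8 CPM in E libraries. Thy1 fell by 4.63 ± 0.67 on the log2 scale (SE; edgeR adjusted p = 0.000112). Pdgfra, a growth factor receptor of fibroblasts, was lower but still present, at 46.4, 52.4 and 51.4 CPM in AGHMT-labelled libraries and 186, 154 and 139.9 CPM in E libraries. Pdgfra fell by 1.68 ± 0.29 on the log2 scale (SE; edgeR adjusted p = 0.000416). Itga5, the fibronectin receptor subunit, had 2.15, 2.92 and 1.69 CPM in AGHMT-labelled libraries and 211, 86.6 and 27.8 CPM in E libraries. Itga5 fell by 5.59 ± 0.91 on the log2 scale (SE; edgeR adjusted p = 0.000297). The 2 that rose were Cd34 and Nt5e, surface proteins of stromal progenitors among other cells, by 1.82 ± 0.40 and 2.38 ± 0.50 on the log2 scale (SE; edgeR adjusted p = 0.00241 and 0.00176). In the TGF-beta pathway, which drives matrix production, 10 of 19 fell and 2 rose (8 and 2 after GC correction), and 6 fell without AGHMT 3. The ligands split: Tgfb1 had 0.231, 1.05 and 0.873 CPM in AGHMT-labelled libraries and 11, 14.6 and 4.65 CPM in E libraries. Tgfb1 fell by 3.78 ± 0.79 on the log2 scale (SE; edgeR adjusted p = 0.00177). Tgfb2 had 228, 177 and 232 CPM in AGHMT-labelled libraries and 25.1, 31.8 and 34.6 CPM in E libraries. Tgfb2 rose by 2.80 ± 0.35 on the log2 scale (SE; edgeR adjusted p = 2.83e-05). The receptor Tgfbr1 was the other member that rose. Tgfbr1 rose by 1.87 ± 0.33 on the log2 scale (SE; edgeR adjusted p = 0.000561). Ltbp2, a member of the family named latent TGF-beta binding proteins, fell furthest. It had 1.92, 4.84 and 2.4 CPM in AGHMT-labelled libraries, against 260.0, 137 and 105 CPM in E libraries.

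**Figure D4:**
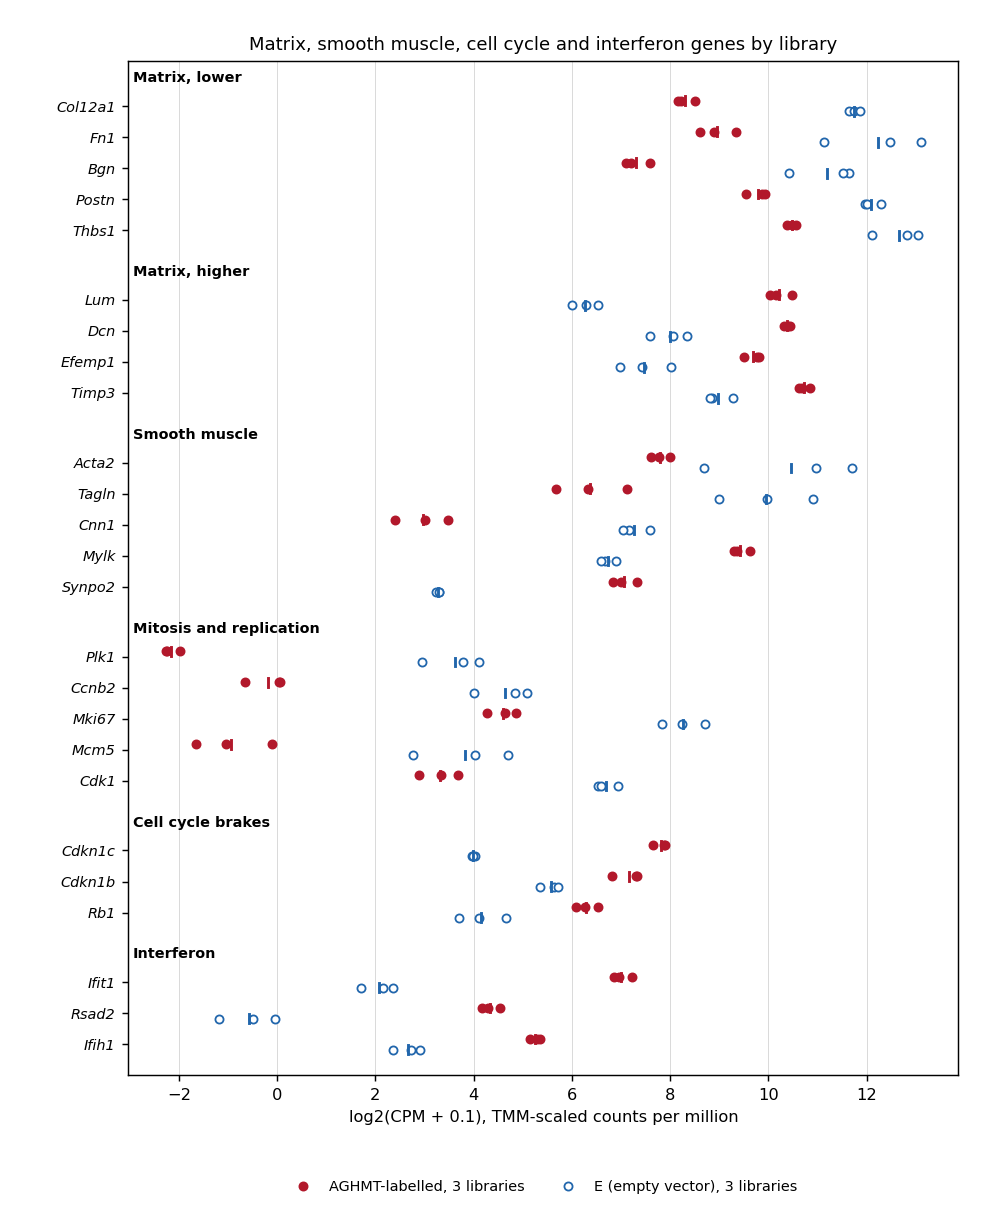
Values of matrix, smooth muscle, cell cycle and interferon genes in each library on a log2(CPM + 0.1) scale, filled red points for the 3 AGHMT-labelled and open blue points for the 3 E libraries, with vertical ticks at the means. Fn1, Acta2 and Plk1 lie lower in AGHMT-labelled libraries, and Lum, Mylk, Cdkn1c and Ifit1 lie higher, with no overlap between the groups.

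Genes of dividing cells were mostly lower. Of 30 mitosis and cytokinesis genes 27 fell and 0 rose, and of 32 DNA replication genes 25 fell and 0 rose. Both counts changed little after GC correction, at 28 and 26. When 1 library was left out, 23 to 27 mitosis and 17 to 24 replication genes fell, with the fewest of both without AGHMT 3. Plk1, a kinase that drives entry into mitosis, had 0.154, 0.11 and 0.109 CPM in AGHMT-labelled libraries and 17.3, 13.6 and 7.61 CPM in E libraries. Plk1 fell by 6.63 ± 0.92 on the log2 scale (SE; edgeR adjusted p = 0.000151). Ccnb2, a mitotic cyclin, had 0.538, 0.936 and 0.927 CPM in AGHMT-labelled libraries and 33.9, 28.6 and 16.1 CPM in E libraries. Ccnb2 fell by 5.01 ± 0.61 on the log2 scale (SE; edgeR adjusted p = 2.17e-05). Mki67, the proliferation marker Ki-67, had 24.8, 29.1 and 19.4 CPM in AGHMT-labelled libraries and 230.0, 302 and 421 CPM in E libraries. Mki67 fell by 3.70 ± 0.38 on the log2 scale (SE; edgeR adjusted p = 4.91e-06). In AGHMT-labelled libraries Plk1 rested on 2 reads each and Ccnb2 on 7, 17 and 17 reads, while Mki67 stayed well above these levels. Among replication genes Mcm5, a subunit of the helicase that opens DNA, had 0.384, 0.826 and 0.218 CPM in AGHMT-labelled libraries and 25.9, 16.2 and 6.73 CPM in E libraries. Mcm5 fell by 5.06 ± 0.95 on the log2 scale (SE; edgeR adjusted p = 0.000857). Cdk1, a kinase of the mitosis list, had 7.3, 12.8 and 10.03 CPM in AGHMT-labelled libraries and 93, 97 and 123 CPM in E libraries. Cdk1 fell by 3.37 ± 0.38 on the log2 scale (SE; edgeR adjusted p = 1.01e-05). Summed over the list, mitosis genes reached 295 to 318 CPM in AGHMT-labelled libraries, 1832 to 2704 CPM in E libraries and 87.8 to 127 CPM in CM libraries.

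Few calls fell on D cyclins, their kinases and inhibitors. Of 15 tested, 3 rose, a share below the 21.9% of all tested genes, and 2 fell (6 higher and 2 lower after GC correction, 2 higher and 4 lower on total gene reads). Cdkn1c, an imprinted inhibitor of cyclin-dependent kinases, had 236, 200.4 and 239.7 CPM in AGHMT-labelled libraries and 15.5, 16.3 and 15.8 CPM in E libraries. Cdkn1c rose by 3.83 ± 0.34 on the log2 scale (SE; edgeR adjusted p = 9.33e-07). Cdkn1b, a relative of it, had 159, 113 and 161 CPM in AGHMT-labelled libraries and 40.7, 49.7 and 52.8 CPM in E libraries. Cdkn1b rose by 1.60 ± 0.31 on the log2 scale (SE; edgeR adjusted p = 0.00102). Rb1, the retinoblastoma protein that holds back E2F factors, had 92.5, 68 and 76.6 CPM in AGHMT-labelled libraries and 12.9, 17.1 and 25.3 CPM in E libraries. Rb1 rose by 2.10 ± 0.39 on the log2 scale (SE; edgeR adjusted p = 0.000804). These were the 3 that rose. Ccnd3 and Cdk4 fell. The call for Ccnd3 ended after GC correction and without AGHMT 1, AGHMT 3 or E 1. Cdk4, a kinase of the G1 phase, had 5.07, 12.3 and 7.47 CPM in AGHMT-labelled libraries and 163, 105 and 39.4 CPM in E libraries. Cdk4 fell by 3.63 ± 0.62 on the log2 scale (SE; edgeR adjusted p = 0.000437).

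Windows before the start sites of 2 of the lower genes are shown for the boxes known from cell cycle promoters. Of 41 mitosis and replication genes that fell and had a window, 68.3% held CCAAT on either strand. An E2F site (TTTCGCGC or TTTGGCGC) was in 9.76% of them (4 genes). These shares were 40.2% and 1.39% among tested genes with a window, and 41.0% and 1.83% among those that fell. No share was taken for list members that did not fall, so membership of a list and the fall cannot be told apart here. Capitals mark the E2F sites, which overlap on opposite strands, in Mcm5 and the 3 CCAAT boxes in Ccnb2.
Mcm5, chr8:75109259-75109508, plus strand: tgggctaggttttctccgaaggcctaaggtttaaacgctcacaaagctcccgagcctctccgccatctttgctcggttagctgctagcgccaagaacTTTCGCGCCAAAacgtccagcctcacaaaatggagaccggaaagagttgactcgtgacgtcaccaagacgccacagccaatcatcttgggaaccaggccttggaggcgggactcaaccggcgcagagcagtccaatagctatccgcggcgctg
Ccnb2, chr9:70421555-70421804, minus strand: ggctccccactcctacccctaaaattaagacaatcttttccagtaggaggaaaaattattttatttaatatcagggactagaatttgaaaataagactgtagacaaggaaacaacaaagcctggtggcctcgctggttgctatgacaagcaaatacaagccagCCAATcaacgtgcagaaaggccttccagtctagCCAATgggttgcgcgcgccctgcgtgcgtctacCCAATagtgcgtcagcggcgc

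Energy genes rose in part. All 10 testable mitochondrially encoded mRNAs were higher, with a median log2 fold change of 3.52, and 9 were after GC correction. mt-Co1, a subunit of cytochrome oxidase, had 115928, 76908 and 101800.0 CPM in AGHMT-labelled libraries and 4394, 6359.9 and 8148 CPM in E libraries. mt-Co1 rose by 3.96 ± 0.40 on the log2 scale (SE; edgeR adjusted p = 4.68e-06). Mitochondrial genes have near-identical nuclear copies, so their counts are uncertain. Fatty acid uptake and oxidation, the main fuel route of the heart, had 17 of 35 genes higher and 3 lower (19 higher and 1 lower after GC correction, 11 higher and 5 lower on total gene reads). Lower calls numbered 1 without E 1, AGHMT 1 or AGHMT 3. Acsl1, which activates fatty acids, had 121, 142 and 179 CPM in AGHMT-labelled libraries and 8.91, 9.43 and 8.38 CPM in E libraries. Acsl1 rose by 4.05 ± 0.32 on the log2 scale (SE; edgeR adjusted p = 2.75e-07). Acadl, a dehydrogenase of the first oxidation step, had 177, 208 and 196 CPM in AGHMT-labelled libraries and 44.9, 38.2 and 39.1 CPM in E libraries. Acadl rose by 2.25 ± 0.28 on the log2 scale (SE; edgeR adjusted p = 3.02e-05). Ucp3, a mitochondrial carrier, had 2.07, 2.97 and 2.73 CPM in AGHMT-labelled libraries and 0, 0.0338 and 0 CPM in E libraries. Ucp3 rose by 7.35 ± 0.79 on the log2 scale (SE; edgeR adjusted p = 7.34e-06). Plin5, a lipid droplet protein of oxidative tissue, rose by 4.80 ± 0.65 on the log2 scale (SE; edgeR adjusted p = 6.05e-05). Ppargc1a, the coactivator that drives mitochondrial gene expression, had 94.4, 69.6 and 76.9 CPM in AGHMT-labelled libraries and 0.134, 0.203 and 0.275 CPM in E libraries. Ppargc1a rose by 8.62 ± 0.50 on the log2 scale (SE; edgeR adjusted p = 1.6e-08). Its partner Esrrg had 21.8, 17.6 and 21.8 CPM in AGHMT-labelled libraries and 0.251, 0.372 and 0.673 CPM in E libraries. Esrrg rose by 5.56 ± 0.61 on the log2 scale (SE; edgeR adjusted p = 9.6e-06).

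Nuclear genes of the respiratory chain gave shares of calls that depended on the scaling. Complex I subunits had 6 of 37 higher and 5 lower, and subunits of complexes II to V had 9 of 38 higher and 7 lower, with medians of -0.22 and 0.01 on the log2 scale. Over all tested genes 21.9% were higher and 24.6% lower, so neither list stood clearly above those shares in either direction. Complex I had 9 higher and 3 lower after GC correction, 0 higher and 8 lower on total gene reads, and complexes II to V had 11 higher and 1 lower after GC correction, 2 higher and 12 lower on total gene reads. Lower calls ranged from 0 to 10 in each list when 1 library was left out, with none in either list without E 1 and the most without E 3. In the tricarboxylic acid cycle 7 of 24 rose and 3 fell (10 higher and 0 lower after GC correction, 4 higher and 4 lower on total gene reads), and lower calls numbered 0 without E 1, AGHMT 1 or AGHMT 3 and 5 without E 3. Pdk1, a kinase that turns down pyruvate entry into the cycle, had 207, 163 and 186 CPM in AGHMT-labelled libraries and 27.8, 23.9 and 26.1 CPM in E libraries. Pdk1 rose by 2.84 ± 0.43 on the log2 scale (SE; edgeR adjusted p = 0.000176). Its relative Pdk4 had 62.2, 47.6 and 51.3 CPM in AGHMT-labelled libraries and 8.88, 9.3 and 12.9 CPM in E libraries. Pdk4 rose by 2.37 ± 0.42 on the log2 scale (SE; edgeR adjusted p = 0.000512). Sucla2, a cycle enzyme, had 435, 411 and 366 CPM in AGHMT-labelled libraries and 58.5, 73.1 and 134 CPM in E libraries. Sucla2 rose by 2.19 ± 0.38 on the log2 scale (SE; edgeR adjusted p = 0.000481). Glycolysis had 8 of 22 lower and 5 higher, the latter close to the 21.9% of all tested genes, but 1 lower without E 1, 1 without AGHMT 3. It had 7 higher and 1 lower after GC correction and 2 higher and 10 lower on total gene reads. Ldha, lactate dehydrogenase A, had 40.3, 73.9 and 43.6 CPM in AGHMT-labelled libraries and 348, 182 and 161 CPM in E libraries. Ldha fell by 2.13 ± 0.36 on the log2 scale (SE; edgeR adjusted p = 0.000357). Slc2a4, the insulin-responsive glucose transporter, had 1.69, 4.73 and 1.96 CPM in AGHMT-labelled libraries and 0.234, 0.237 and 0.0611 CPM in E libraries. Slc2a4 rose by 3.90 ± 0.65 on the log2 scale (SE; edgeR adjusted p = 0.000373).

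**Figure D5:**
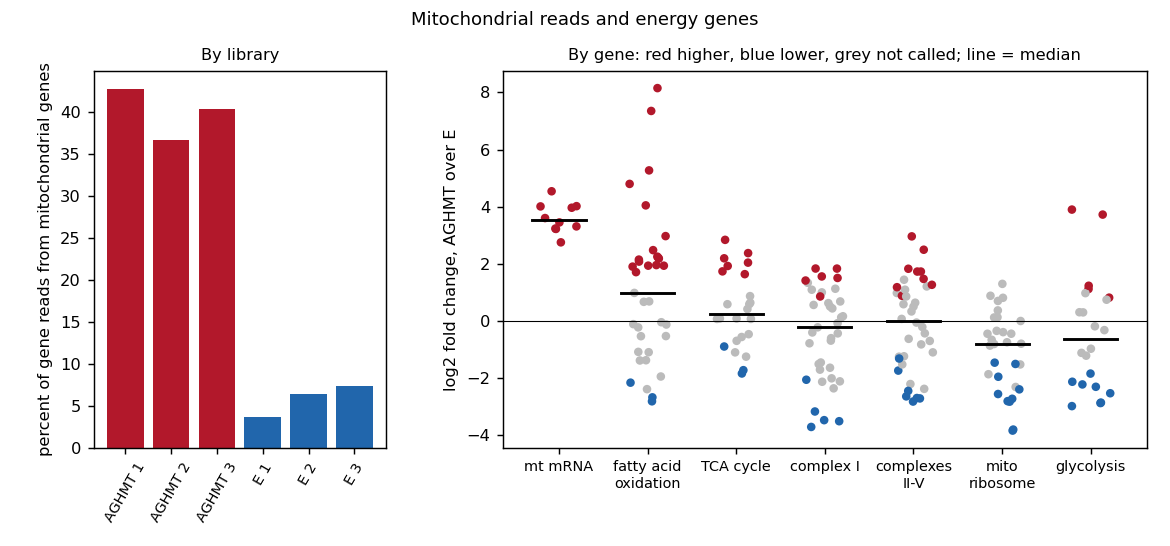
Left, percent of gene reads from mitochondrial genes in each library, 36.6% to 42.7% in AGHMT-labelled and 3.65% to 7.36% in E libraries, and right, log2 fold change of AGHMT-labelled over E libraries for each tested gene of 7 energy lists, with the list median as a line. Every mitochondrially encoded mRNA lies above 2.7, while nuclear respiratory chain genes spread around 0.

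In signalling lists the calls were mixed. Over all tested genes 21.9% were higher and 24.6% lower, and the Akt and Wnt lists had shares near these. So did the higher calls of the insulin-like growth factor list. Among 26 genes of the Akt, PI3K and mTOR pathway 6 rose and 8 fell (5 higher and 6 lower after GC correction, 3 higher and 12 lower on total gene reads), and leaving out 1 library at a time gave 2 to 9 lower, with 3 without AGHMT 1 and 2 without E 1 or AGHMT 3. Pik3r1, a regulatory subunit of PI3K, had 546, 397 and 469.5 CPM in AGHMT-labelled libraries and 128, 126 and 169 CPM in E libraries. Pik3r1 rose by 1.74 ± 0.32 on the log2 scale (SE; edgeR adjusted p = 0.000777). Inpp4b, a lipid phosphatase, had 11.5, 11.7 and 11.3 CPM in AGHMT-labelled libraries and 0.301, 0.507 and 0.489 CPM in E libraries. Inpp4b rose by 4.72 ± 0.69 on the log2 scale (SE; edgeR adjusted p = 0.000121). FoxO factors, which Akt is known to keep out of the nucleus, and their targets had 10 of 16 higher and 2 lower (10 higher and 1 lower after GC correction, 4 higher and 2 lower on total gene reads). Foxo1 had 68.8, 49.99 and 60.5 CPM in AGHMT-labelled libraries and 9.12, 10.2 and 9.39 CPM in E libraries. Foxo1 rose by 2.64 ± 0.39 on the log2 scale (SE; edgeR adjusted p = 0.000118). Fbxo32, a ubiquitin ligase of muscle wasting, had 302, 260.4 and 294 CPM in AGHMT-labelled libraries and 32.5, 37 and 47.3 CPM in E libraries. Fbxo32 rose by 2.87 ± 0.32 on the log2 scale (SE; edgeR adjusted p = 9.27e-06). Trim63, another such ligase, had 26.3, 39.2 and 27 CPM in AGHMT-labelled libraries and 0.167, 0.338 and 0.122 CPM in E libraries. Trim63 rose by 7.20 ± 0.52 on the log2 scale (SE; edgeR adjusted p = 1.39e-07). No member of the list was lower without AGHMT 1, AGHMT 3 or E 1.

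The insulin-like growth factor axis had 4 of 15 higher and 6 lower (5 higher and 3 lower after GC correction, 2 higher and 6 lower on total gene reads). Its median log2 fold change was -0.85, and 0.31 after GC correction. Igf2, the fetal growth factor, had 2417, 2068 and 3068 CPM in AGHMT-labelled libraries and 569, 649 and 651 CPM in E libraries. Igf2 rose by 2.01 ± 0.25 on the log2 scale (SE; edgeR adjusted p = 2.93e-05). Igfbp5, a binding protein of these factors, had 1473, 1656 and 1679 CPM in AGHMT-labelled libraries and 498, 437 and 341 CPM in E libraries. Igfbp5 rose by 1.91 ± 0.25 on the log2 scale (SE; edgeR adjusted p = 4.36e-05). The receptor Igf1r had 1.77, 3.74 and 1.42 CPM in AGHMT-labelled libraries and 57.3, 41.1 and 18.6 CPM in E libraries. Igf1r fell by 4.07 ± 0.61 on the log2 scale (SE; edgeR adjusted p = 0.000158). The insulin receptor Insr had 142, 107 and 126 CPM in AGHMT-labelled libraries and 37.6, 40.5 and 41.1 CPM in E libraries. Insr rose by 1.65 ± 0.31 on the log2 scale (SE; edgeR adjusted p = 0.000764). So 1 receptor was lower and the other higher. Lower calls of the list numbered 2 without AGHMT 3 and 3 without AGHMT 1 or E 1. Peg10, an imprinted gene like Igf2, had 1098, 970.0 and 1259 CPM in AGHMT-labelled libraries and 33.5, 60.8 and 73.7 CPM in E libraries. Peg10 rose by 4.31 ± 0.39 on the log2 scale (SE; edgeR adjusted p = 1.47e-06). Mest, also imprinted, had 296, 306 and 355 CPM in AGHMT-labelled libraries and 45.3, 38.2 and 26 CPM in E libraries. Mest rose by 3.13 ± 0.33 on the log2 scale (SE; edgeR adjusted p = 7.13e-06).

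Notch genes had 6 of 14 higher and 2 lower (10 higher and 1 lower after GC correction), and lower calls numbered 0 without E 1 or AGHMT 3 and 1 without AGHMT 1, AGHMT 2 or E 2. Jag1, a Notch ligand, had 452, 322 and 403 CPM in AGHMT-labelled libraries and 44.5, 36.4 and 33.9 CPM in E libraries. Jag1 rose by 3.36 ± 0.29 on the log2 scale (SE; edgeR adjusted p = 6.89e-07). The Notch target Hey2, a ventricular repressor, had 44.3, 31.3 and 38.9 CPM in AGHMT-labelled libraries and 0.569, 0.541 and 1.47 CPM in E libraries. Hey2 rose by 5.47 ± 0.62 on the log2 scale (SE; edgeR adjusted p = 1.19e-05). BMP genes had 6 of 21 higher and 7 lower (8 higher and 4 lower after GC correction, 3 higher and 8 lower on total gene reads), and lower calls numbered 3 without AGHMT 1 or AGHMT 2 and 4 without AGHMT 3, E 1 or E 2. Bmp2, a ligand of this pathway, had 23.4, 13.6 and 16.5 CPM in AGHMT-labelled libraries and 0.184, 0.101 and 0.275 CPM in E libraries. Bmp2 rose by 6.51 ± 0.59 on the log2 scale (SE; edgeR adjusted p = 1.18e-06). The receptors Bmpr1a and Bmpr2 rose by 1.57 ± 0.33 and 1.82 ± 0.33 on the log2 scale (SE; edgeR adjusted p = 0.00202 and 0.000749). Wnt genes had 5 of 28 higher and 8 lower (7 higher and 3 lower after GC correction, 1 higher and 14 lower on total gene reads), so the balance of their calls turned with GC correction, and lower calls numbered 1 without AGHMT 1 or AGHMT 3, 2 without E 1 and 4 without AGHMT 2 or E 2. Lgr5, a receptor that amplifies Wnt signals, had 6.38, 6.99 and 6.87 CPM in AGHMT-labelled libraries and 49.5, 49.4 and 46.7 CPM in E libraries. Lgr5 fell by 2.84 ± 0.49 on the log2 scale (SE; edgeR adjusted p = 0.000418).

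Interferon response genes, which cells switch on against viruses, rose in 18 of 26 tested and fell in 0 (20 higher and 0 lower after GC correction). Summed over the list, they reached 504 to 563 CPM in AGHMT-labelled and 135 to 148 CPM in E libraries. Ifit1, which binds foreign RNA, had 124, 116 and 149 CPM in AGHMT-labelled libraries and 3.16, 4.33 and 5.04 CPM in E libraries. Ifit1 rose by 4.95 ± 0.37 on the log2 scale (SE; edgeR adjusted p = 2.12e-07). Ifit genes share sequence with one another, so their counts are uncertain. Rsad2, viperin, had 19.4, 18 and 23.1 CPM in AGHMT-labelled libraries and 0.87, 0.338 and 0.611 CPM in E libraries. Rsad2 rose by 5.01 ± 0.77 on the log2 scale (SE; edgeR adjusted p = 0.000195). Ifih1, a sensor of double-stranded RNA, had 40.7, 35.2 and 38.9 CPM in AGHMT-labelled libraries and 5.02, 6.49 and 7.43 CPM in E libraries. Ifih1 rose by 2.60 ± 0.34 on the log2 scale (SE; edgeR adjusted p = 4.53e-05). Each of the 3 was higher in every AGHMT-labelled library than in any E library. The interferon-stimulated response element, searched on both strands, was in the windows of 5 of 11 members that rose and had one (45.5%). It was in 3.17% of tested genes with a window and 3.61% of those that rose. List members that did not rise were left out, so membership and the rise cannot be told apart here. Capitals mark the element, read on the opposite strand, once in Rsad2 and at 2 places in Ifit1.
Rsad2, chr12:26456453-26456702, minus strand: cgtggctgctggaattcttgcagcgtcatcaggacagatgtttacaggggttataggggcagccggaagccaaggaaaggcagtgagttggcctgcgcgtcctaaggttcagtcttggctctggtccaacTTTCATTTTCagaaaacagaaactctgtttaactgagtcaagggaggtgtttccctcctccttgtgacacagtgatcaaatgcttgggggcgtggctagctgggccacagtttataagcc
Ifit1, chr19:34640639-34640888, plus strand: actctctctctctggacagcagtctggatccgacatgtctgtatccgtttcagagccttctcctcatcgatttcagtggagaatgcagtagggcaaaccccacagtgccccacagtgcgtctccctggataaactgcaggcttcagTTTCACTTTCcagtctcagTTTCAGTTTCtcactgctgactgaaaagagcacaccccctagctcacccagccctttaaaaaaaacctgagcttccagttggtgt

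Cytokine genes split, with 5 of 19 higher and 9 lower (5 higher and 7 lower after GC correction, 3 higher and 9 lower on total gene reads). Without AGHMT 1 there were 3 higher. Il33, an alarm cytokine of stromal cells, had 97.3, 95.3 and 98.1 CPM in AGHMT-labelled libraries and 1.77, 2.2 and 1.65 CPM in E libraries. Il33 rose by 5.69 ± 0.45 on the log2 scale (SE; edgeR adjusted p = 3.21e-07). Il6 had 48.3, 42.6 and 41.4 CPM in AGHMT-labelled libraries and 4.1, 5.17 and 6.88 CPM in E libraries. Il6 rose by 3.03 ± 0.70 on the log2 scale (SE; edgeR adjusted p = 0.00341). Cxcl14, a chemokine, had 0.615, 0.771 and 0.982 CPM in AGHMT-labelled libraries and 52.2, 42.4 and 17.3 CPM in E libraries. Cxcl14 fell by 5.54 ± 0.73 on the log2 scale (SE; edgeR adjusted p = 5.1e-05). Ptgs2, the enzyme that starts prostaglandin synthesis, had 31.7, 34.7 and 31.5 CPM in AGHMT-labelled libraries and 152, 262 and 408 CPM in E libraries. Ptgs2 fell by 3.07 ± 0.57 on the log2 scale (SE; edgeR adjusted p = 0.000777). Immediate early genes, which respond to stimuli within minutes, had 6 of 17 higher and 2 lower, with 13 higher and 2 lower after GC correction, 3 higher and 2 lower on total gene reads. Fos had 132, 106 and 149.9 CPM in AGHMT-labelled libraries and 1.94, 2.87 and 2.32 CPM in E libraries. Fos rose by 5.77 ± 0.41 on the log2 scale (SE; edgeR adjusted p = 1.14e-07). Its relative Fosl1 had 0.231, 0.11 and 0.218 CPM in AGHMT-labelled libraries and 8.01, 11.4 and 3.88 CPM in E libraries. Fosl1 fell by 5.34 ± 0.77 on the log2 scale (SE; edgeR adjusted p = 0.000183). The second member that fell, Myc, had 1.61, 2.26 and 3.11 CPM in AGHMT-labelled libraries and 14.5, 15.6 and 13.8 CPM in E libraries (log2 fold change -2.64 ± 0.72 (SE), edgeR adjusted p = 0.00911), a call lost without AGHMT 1.

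Biosynthetic groups held more lower than higher calls. Targets of ATF4, serine and one-carbon enzymes had 14 of 21 lower and 2 higher (11 and 2 after GC correction), and 8 lower without AGHMT 3 and 9 without AGHMT 1. Psat1, a serine synthesis enzyme, had 21.3, 23.9 and 22.8 CPM in AGHMT-labelled libraries and 227, 215 and 169 CPM in E libraries. Psat1 fell by 3.17 ± 0.40 on the log2 scale (SE; edgeR adjusted p = 3.61e-05). Shmt2, which feeds one-carbon units in mitochondria, had 0.692, 0.936 and 0.654 CPM in AGHMT-labelled libraries and 47.3, 28.5 and 10.8 CPM in E libraries. Shmt2 fell by 5.23 ± 0.84 on the log2 scale (SE; edgeR adjusted p = 0.000262). Sterol and fatty acid synthesis had 13 of 27 lower and 4 higher (4 higher and 10 lower after GC correction, 2 higher and 17 lower on total gene reads), and lower calls numbered 6 without E 1 or AGHMT 3, 7 without AGHMT 1 and 8 without AGHMT 2. Scd1, a fatty acid desaturase, had 748, 553 and 572 CPM in AGHMT-labelled libraries and 181, 198 and 203 CPM in E libraries. Scd1 rose by 1.69 ± 0.31 on the log2 scale (SE; edgeR adjusted p = 0.000657). Cytosolic ribosomal proteins had 26 of 35 lower and 1 higher, 20 lower after GC correction and 17 without E 1 or AGHMT 1. Rps3 had 117, 175 and 132 CPM in AGHMT-labelled libraries and 675, 396 and 448 CPM in E libraries. Rps3 fell by 1.84 ± 0.38 on the log2 scale (SE; edgeR adjusted p = 0.00154). Ribosomal protein genes have many processed copies in the genome, so their counts are uncertain.

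Markers of cells other than fibroblasts and heart muscle were read as whole lists. Endothelial genes rose in 12 of 13 tested and fell in 0 (13 higher and 0 lower after GC correction), with sums of 204 to 225 CPM in AGHMT-labelled, 36.8 to 37.3 CPM in E and 736 to 948 CPM in CM libraries. Pecam1, which marks vessel lining, had 3.92, 7.49 and 6.22 CPM in AGHMT-labelled libraries and 0.0836, 0.0676 and 0.245 CPM in E libraries. Pecam1 rose by 5.45 ± 0.61 on the log2 scale (SE; edgeR adjusted p = 1.12e-05). Cdh5, the cadherin of vessel lining, had 4.61, 8.75 and 5.83 CPM in AGHMT-labelled libraries and 0.318, 0.27 and 0.153 CPM in E libraries. Cdh5 rose by 4.63 ± 0.59 on the log2 scale (SE; edgeR adjusted p = 3.47e-05). Flt1, a receptor of vascular endothelial growth factor and the gene with the most reads of the list, had 126, 137 and 139 CPM in AGHMT-labelled libraries and 23.3, 27 and 24.6 CPM in E libraries. Flt1 rose by 2.43 ± 0.28 on the log2 scale (SE; edgeR adjusted p = 1.36e-05). Macrophage genes rose in 4 of 18 and 14 did not pass, a share of higher calls close to the 21.9% of all tested genes. Their sums were 78.7 to 149 CPM in AGHMT-labelled and 20.4 to 49.6 CPM in E libraries. The list had 10 higher and 0 lower after GC correction, 4 higher and 1 lower on total gene reads. Ptprc, the pan-leukocyte marker CD45, had 8.3, 7.76 and 6.71 CPM in AGHMT-labelled libraries and 0.636, 0.879 and 0.887 CPM in E libraries. Ptprc rose by 3.24 ± 0.65 on the log2 scale (SE; edgeR adjusted p = 0.00139). Mrc1, a scavenger receptor, had 86.2, 45 and 35.4 CPM in AGHMT-labelled libraries and 2.78, 3.75 and 4.28 CPM in E libraries. Mrc1 rose by 3.95 ± 0.49 on the log2 scale (SE; edgeR adjusted p = 2.79e-05). Epicardial and mesothelial genes rose in 4 of 8 and fell in 1 (6 higher and 0 lower after GC correction). The 1 that fell was Krt19, a call that ended without AGHMT 1, AGHMT 3, E 1 or E 2. Wt1, which defines the heart's outer layer, had 41.7, 39.1 and 34.8 CPM in AGHMT-labelled libraries and 2.22, 2.4 and 2.29 CPM in E libraries. Wt1 rose by 4.06 ± 0.45 on the log2 scale (SE; edgeR adjusted p = 8.93e-06). The part of these cells in the other results was not tested.

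Genes of the mast cell list did not move together: 4 of 8 tested rose and 2 fell (4 higher and 2 lower after GC correction). Mcpt2, a mast cell protease, had 17.5, 15.7 and 12.3 CPM in AGHMT-labelled libraries and no read in E libraries, at least 607-fold higher when E is set at a floor of 3 reads over the group. Mcpt8, another protease of the list, had 0, 0.0551 and 0.109 CPM in AGHMT-labelled libraries and 7.39, 10.2 and 4.25 CPM in E libraries. Whether Mcpt8 marks mast cells here was not tested. Mcpt8 fell by 6.78 ± 0.98 on the log2 scale (SE; edgeR adjusted p = 0.000118). Il1rl1, the receptor of Il33, had 18.8, 19.3 and 22.2 CPM in AGHMT-labelled libraries and 214, 289 and 427 CPM in E libraries. Il1rl1 fell by 3.95 ± 0.36 on the log2 scale (SE; edgeR adjusted p = 1.26e-06). Kit, a receptor that defines mast cells, was low in both groups but was among those that rose, and had 0.769, 1.49 and 1.58 CPM in AGHMT-labelled libraries and 0.0836, 0.135 and 0.0917 CPM in E libraries. Kit rose by 3.57 ± 0.65 on the log2 scale (SE; edgeR adjusted p = 0.000954). Cpa3, the other defining gene, had 0, 0.385 and 0.109 CPM in AGHMT-labelled libraries and 0, 0 and 0.0611 CPM in E libraries. Mcpt genes lie in a cluster of similar sequences and their counts are uncertain. Sox10, which defines glia, had 0, 0 and 0 CPM in AGHMT-labelled libraries and 0.151, 0.101 and 0.0611 CPM in E libraries, and Adipoq, which defines fat cells, had 0, 0 and 0.0545 CPM in AGHMT-labelled libraries and 0, 0 and 0 CPM in E libraries.

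Hox genes, which record position along the body, gave few calls. Among 27 tested genes, 2 rose and 2 fell, with a median log2 fold change of 0.23, and the list had 6 higher and 0 lower after GC correction, 0 higher and 3 lower on total gene reads. Lower calls stood in full without E 3 and numbered 0 without any other 1 of the 6 libraries, and higher calls numbered 1 without any 1 of the 6. Hox genes summed to 240.4 to 309 CPM in AGHMT-labelled, 198 to 217 CPM in E and 4.9 to 7.55 CPM in CM libraries. Hoxc8, the member with the most reads, had 67.6, 50.7 and 65.9 CPM in AGHMT-labelled libraries and 15.8, 17.9 and 17.6 CPM in E libraries (log2 fold change 1.84 ± 0.44 (SE), edgeR adjusted p = 0.00436), a call that did not hold after GC correction (edgeR adjusted p = 0.05, just above the threshold).

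The genes with the largest changes were not all heart genes. Ranked by fold change among called protein-coding genes with a mean of at least 10 CPM over the 6 libraries and no overlap, the 12 highest included Tecrl, Trdn, Hcn4, Kcnj5 and Kcnj3, which heart muscle cells use, and Mcpt4. Some of the others were scarce in CM libraries. Crh, corticotropin-releasing hormone of the brain, had 24.5, 22.2 and 31.8 CPM in AGHMT-labelled libraries, no read in E libraries and 0.182 ± 0.173 CPM in CM libraries (SD, n = 3), at least 1072-fold higher than the E floor. Gpr83, a receptor of the nervous and immune systems, had 20.3, 20.6 and 23.3 CPM in AGHMT-labelled libraries, no read in E libraries and none in CM libraries, at least 877-fold higher than the E floor. Dcpp3, a secreted salivary protein, had 19.9, 30.5 and 14.7 CPM in AGHMT-labelled libraries and no read in E or CM libraries, and its close relatives of similar sequence make its count uncertain. Tcp11x2, a testis gene of the X chromosome, had 45, 38.8 and 39.97 CPM in AGHMT-labelled libraries and 0.0167, 0.0676 and 0 CPM in E libraries and 0.15 ± 0.151 CPM in CM libraries. Tcp11x2 rose by 10.31 ± 0.76 on the log2 scale (SE; edgeR adjusted p = 1.68e-07). Ppp1r14c, an inhibitor of protein phosphatase 1, had 621, 393 and 478 CPM in AGHMT-labelled libraries and 0.234, 0.237 and 0.764 CPM in E libraries (log2 fold change 10.25 ± 0.60 (SE), edgeR adjusted p = 1.7e-08), with 234 ± 97.4 CPM in CM libraries. Mal, a membrane traffic protein, had 214, 236 and 154 CPM in AGHMT-labelled libraries and 0.167, 0.0676 and 0.0917 CPM in E libraries (log2 fold change 10.66 ± 0.55 (SE), edgeR adjusted p = 8.12e-09) and 14.2 ± 6.02 CPM in CM libraries. So the AGHMT-labelled level of Mal was above both the E and the CM level. High levels of most of these genes were not particular to AGHMT-labelled libraries. In GHMT libraries, sorted alike, means were 230 CPM for Mal, 49.2 CPM for Crh and 47.8 CPM for Gpr83. Tcp11x2 averaged 149 CPM and Ppp1r14c 729 CPM there, while Dcpp3 had only 0, 1 and 1 reads.

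At the other end of the ranking stood genes of varied function. Crabp1, a retinoic acid carrier, had 0.845, 0.771 and 0.273 CPM in AGHMT-labelled libraries and 233, 144 and 24.3 CPM in E libraries. Crabp1 fell by 7.74 ± 0.84 on the log2 scale (SE; edgeR adjusted p = 8.8e-06). Lgals1, a galectin, had 11.5, 12.9 and 6.65 CPM in AGHMT-labelled libraries and 2656, 554 and 119.8 CPM in E libraries. Lgals1 fell by 6.75 ± 1.21 on the log2 scale (SE; edgeR adjusted p = 0.000607). E 1 was far above E 3. Serpinf1, a secreted protein of mesenchymal cells, had 3.84, 8.42 and 3.38 CPM in AGHMT-labelled libraries and 421, 306 and 76.6 CPM in E libraries. Serpinf1 fell by 5.68 ± 0.67 on the log2 scale (SE; edgeR adjusted p = 1.98e-05). Gjb2, a connexin of epithelia, had 0.384, 0.385 and 0.273 CPM in AGHMT-labelled libraries and 20.9, 25.3 and 16.8 CPM in E libraries (log2 fold change -5.89 ± 0.66 (SE), edgeR adjusted p = 2.29e-05), with a narrow spread in both groups. Ripk3, a kinase that triggers necroptosis, had 0.384, 0.33 and 0.327 CPM in AGHMT-labelled libraries and 46.7, 24.4 and 7.06 CPM in E libraries. Ripk3 fell by 6.21 ± 0.83 on the log2 scale (SE; edgeR adjusted p = 0.000106). Piezo1, a channel opened by membrane stretch, had 0.538, 1.16 and 0.873 CPM in AGHMT-labelled libraries and 86.4, 43.2 and 13.4 CPM in E libraries. Piezo1 fell by 5.77 ± 0.99 on the log2 scale (SE; edgeR adjusted p = 0.000445). Cd248, Emp3, Plac8, Itpr3, Kif2c and Ltbp2 completed the 12. After GC correction the 6 genes given with values here kept log2 fold changes of -5.70, -4.96, -4.30, -5.80, -4.79 and -3.66, each with an edgeR adjusted p of at most 0.00133.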

How the data were processed

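Per the labels' protocols, TRIzol RNA went into a TruSeq stranded kit. The submitters' processing notes name Bowtie2 2.0.6, HTSeq and the build mm10. No source used here states the strand setting or the annotation. The deposited counts are whole numbers per gene, and rows that name no gene held 12.7% to 15.4% of uniquely aligned reads as no feature in AGHMT-labelled and 12.9% to 15.3% in E libraries. A deposited table of signal values, normalized by the authors with DESeq per the submitters' notes, was whole reads divided by a factor (100% of values whole within 0.001) and served as an alternative. Gene names, lengths and GC content came from GENCODE M21.

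Counts of all 12 libraries were fitted together with edgeR 4.0.16 (R 4.3.3; filterByExpr with a minimum count of 10, trimmed mean of M values, robust quasi-likelihood test, Benjamini-Hochberg threshold 0.05). SE is the log2 fold change divided by the root of F. Alternatives were other scalings and filters, DESeq2 1.42.0, limma 3.58.1, the 6 libraries alone or thinned to 8238918 nuclear reads, a GC correction by lowess per library, and single omissions. The fit was tested on simulated data. Floors of 3 reads cover counting error only. Named were the delivered genes, the reporter gene, each list's member with the most reads and up to 4 with the largest called changes, defining markers of other cells, and the 12 largest changes each way. The members and lists were chosen with earlier results of these data known. Some genes that this rule names are not reported here.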

Additional observations from a re-analysis of the deposited data

How the results depend on the processing

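The counts of higher and lower genes, 3292 and 3706, moved with scaling and with single libraries. Higher genes numbered 1622 on total counts and 2179 with limma on log2 of the deposited values plus 1, and lower genes numbered 1670 to 4022 when 1 library was left out, while higher genes numbered 2431 to 3281. DESeq2 called 3169 higher and 5316 lower, and its size factors in edgeR gave 2673 and 4458 with a median log2 fold change of -0.50. Without a filter the counts were 3682 and 4637, with a stricter filter (above 1 CPM in 3 libraries) 3161 and 3556, without mitochondrial genes in the scaling 3364 and 3225, and against a 1.5-fold threshold 2704 and 3050. The 6 libraries alone gave 4463 and 5114, thinned to one depth 4311 and 4561. Reads recovered from the deposited table, an alternative chosen after seeing the data, gave 3292 and 3703. A replicate block gave 2807 and 2867. Same-numbered libraries did not deviate together (correlations -0.32, 0.13 and 0.08). So few correlations cannot exclude a pairing, so whether the numbers pair libraries stays unsettled. The mitochondrial difference of 34.1 percentage points was 28.6 over all uniquely aligned reads, 32.9 without mt-Nd6 and 32.7 to 35.8 when 1 library was left out. Of 157 tested genes given with values, 139 kept direction and side of the threshold under all alternatives that gave a value, and DESeq2 gave no adjusted p for Mb. GC correction turned Adcy6 to 0.12, Mef2d to 0.13 and Ogn to -0.021, and the cause was not tested. Genes with few reads in either group were limited by depth, with a floor of 0.0606 CPM over the AGHMT-labelled and 0.0246 CPM over the E libraries.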
